A study of Mus musculus with 48 samples.

Results

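The transcripts of 8 complement genes, C1qa, C1qb, C1qc, C2, C3, C4b, Cfb and Cfd, were followed across the groups of a mouse mammary gland study. They were taken by symbol from a matrix of 55487 gene rows, in which each symbol occurs once. RNA came from whole thoracic mammary glands of mice with the genotype MMTV-rtTA/tet-op-Esr1 or MMTV-rtTA/tet-op-CYP19A1. In both, a tetracycline-controlled activator under a mammary tumour virus promoter switches on a responder, which is Esr1 (estrogen receptor alpha) in one model and CYP19A1 (aromatase, the enzyme that makes estrogens) in the other. Each model had 8 groups of 3 libraries, 48 libraries in all. Induction lasted 1 week in mice of 12 and 18 months of age, 6 or 12 months in mice of 24 months, and 18 months in mice of 30 months. Uninduced glands carried the same transgenes without induction, at 12, 18 and 24 months of age. The 16 groups hold no uninduced gland of 30 months and no gland given the inducer without a responder, so inducer and transgene cannot be told apart, nor can age and length of induction at 30 months. The labels give neither sex nor strain. The library names in the titles are built one way at 12 and 18 months and another way at 24 and 30 months, so age and any unrecorded batch cannot be told apart.

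Complement is a cascade of plasma proteins that tags cells and particles and calls in inflammatory cells. The C1q complex, built of the products of C1qa, C1qb and C1qc, starts the classical pathway, in which C4 and C2 form an enzyme that cleaves C3, the protein on which the pathways meet. The alternative pathway cleaves C3 with factor B (Cfb), which factor D (Cfd, also called adipsin) activates. Tissue macrophages are a main source of C1q, adipocytes of factor D, and the liver of most plasma C3.

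Values are TPM, a transcript abundance corrected for transcript length and scaled to one fixed total in each library. Each of the 8 transcripts was above 1 TPM in all 48 libraries, and all 8 entered the tests with 20209 genes of at least 1 TPM in at least 3 libraries. Changes are differences of log2(TPM + 1) from 1 limma fit over the 16 groups, two-sided. A gene passed a comparison at a Benjamini-Hochberg adjusted p under 0.05 over the genes tested. Folds on that scale lie slightly nearer to 1 than ratios of TPM for the scarcer transcripts. The labels call the libraries biological replicates without saying that each is another mouse, so p-values speak only of how these libraries scatter. In whole tissue, fewer cells of a type and less RNA per cell cannot be told apart.

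Library quality differed. In 9 libraries, 7 of CYP19A1 and 2 of Esr1 glands, over 10% of TPM fell on 3 genes with ribosomal RNA-like sequence (CT010467.1, AY036118 and Lars2), up to 67.2%, which lowers the TPM of other genes there. These include the 3 CYP19A1 libraries of 1 week at 12 months, and replicates 1 and 3 of uninduced CYP19A1 glands of 12 months. Read depth is unknown beyond the stated 50 M reads per library, since TPM keep no depth. The mouse Esr1 transcript had 6.39 to 25.9 TPM in induced Esr1 glands and 8.88 to 16.3 TPM in uninduced Esr1 glands, so it does not separate the induction labels.

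Among the members, 2 changes passed in 176 tests (8 members in 22 comparisons). C4b, the C4 component of the classical pathway, was 2.20-fold higher in uninduced glands of 24 months than in those of 12 months when both models were averaged. Cfb was lower, at 0.253-fold, in Esr1 glands of 30 months with 18 months of induction than in Esr1 glands of 24 months with 12 months of induction. Of all genes tested, 4.68% passed in that C4b comparison and 0.139% in that Cfb comparison. Both calls were lost when the compared groups were fitted alone. In none of the 8 comparisons of induced with uninduced glands did a member pass, where at most 0.0198% of genes did. In levels, Cfd was the highest of the 8 in 48 of 48 libraries, and the 3 C1q transcripts varied together.

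**Figure D1:**
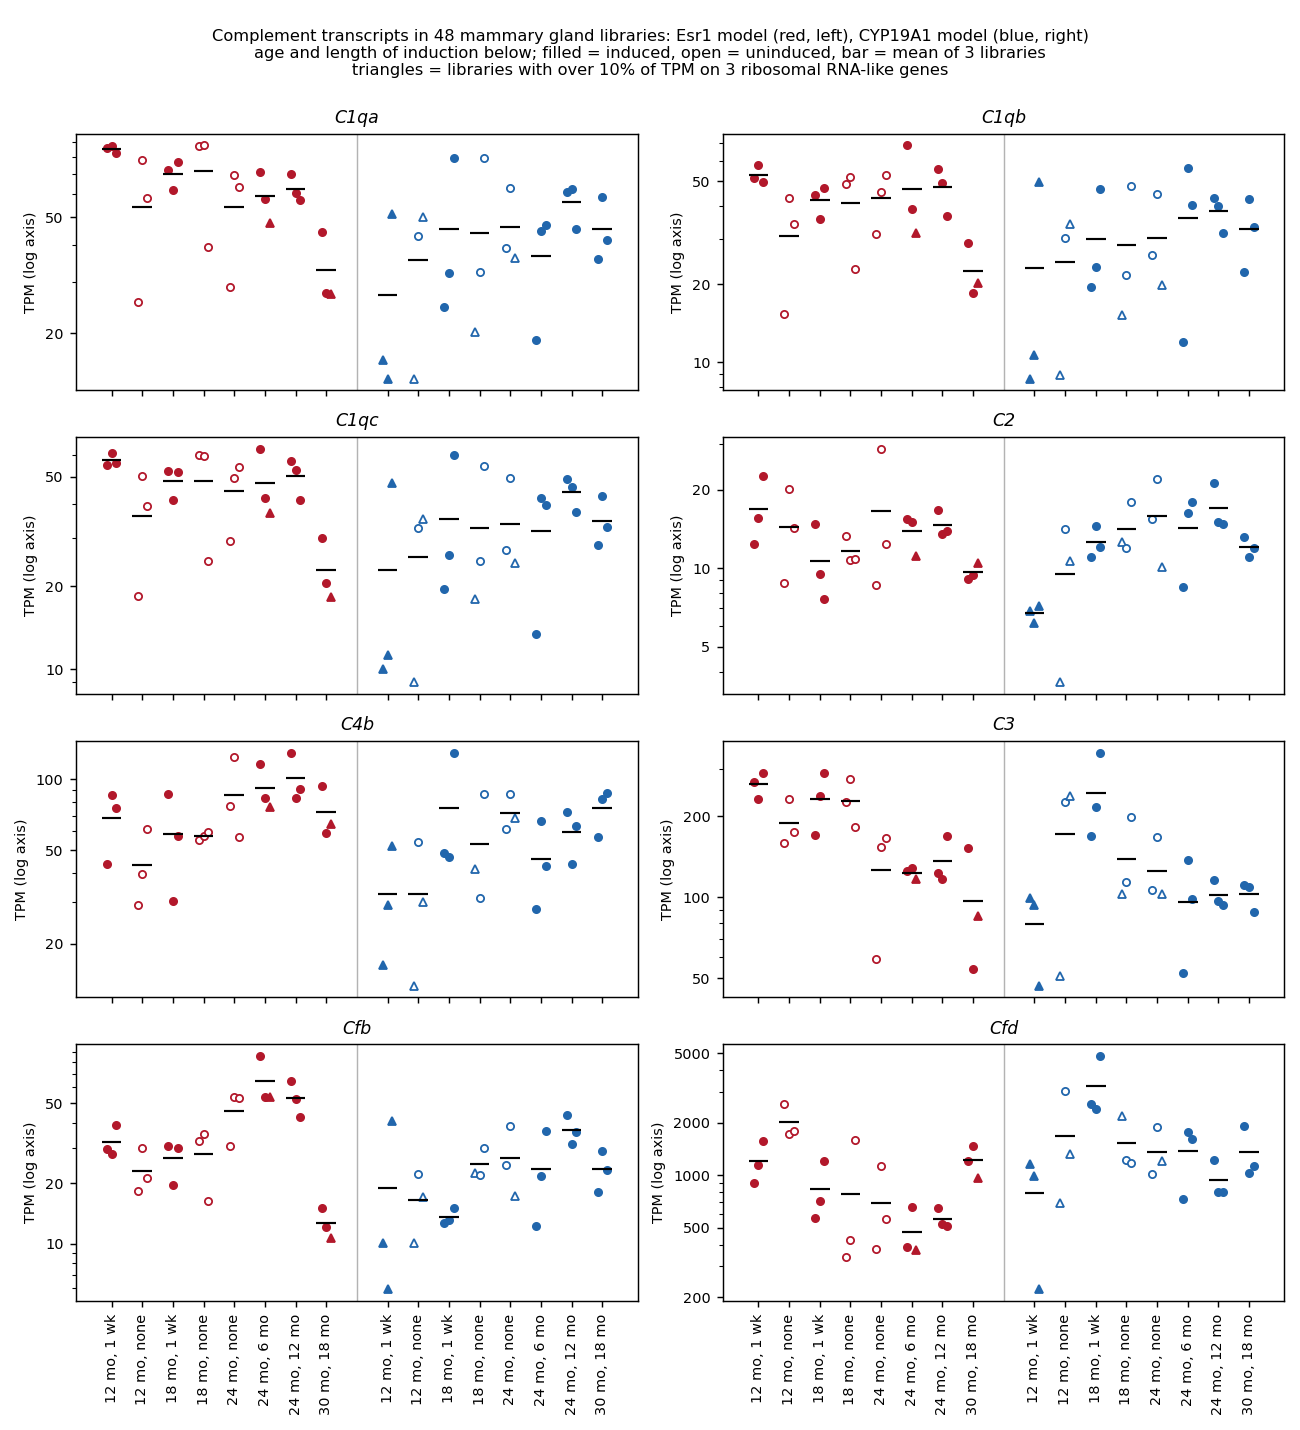
TPM of each member in the 48 libraries on a log axis, with Esr1 groups on the left (red) and CYP19A1 groups on the right (blue) of each panel, labelled by age and length of induction; filled points are induced, open points uninduced, triangles mark the 9 libraries with over 10% of TPM on ribosomal RNA-like genes, and bars are means of 3. Cfb in Esr1 glands of 30 months lies at 10.7 to 15.1 TPM, below every other Esr1 library, and Cfd spans 222 to 4804 TPM.

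C1qa, C1qb and C1qc encode the chains of C1q, the part of the complex that binds antibody on a target. The genes lie side by side on chromosome 4 of mm10, on the minus strand, with C1qb at chr4:136880129-136886187, C1qc at chr4:136889804-136893065 and C1qa at chr4:136895917-136898803, a span of 18675 bp. Of the 8 members, 4 (C1qb, C1qc, C3 and Cfd) had a promoter entry in RefSeq (GRCm38.p6). The bases before the start of C1qb and C1qc are shown because these neighbours have the closest levels over the libraries, C1qb at chr4:136886201-136886450 (250 bases up to the RefSeq start) and C1qc at chr4:136893066-136893164 (the 99 bases that lie outside the annotated gene), each read 5′ to 3′ along the gene's minus strand. Capitals mark a match to the PU.1 motif GAGGAAGT, searched on both strands.
C1qb: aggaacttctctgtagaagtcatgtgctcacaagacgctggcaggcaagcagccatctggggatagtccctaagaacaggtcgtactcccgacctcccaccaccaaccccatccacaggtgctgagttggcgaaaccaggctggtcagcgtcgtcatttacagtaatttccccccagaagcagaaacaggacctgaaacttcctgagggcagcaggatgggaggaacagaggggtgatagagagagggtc
C1qc: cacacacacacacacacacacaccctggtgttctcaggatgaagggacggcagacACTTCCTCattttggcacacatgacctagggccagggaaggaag

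PU.1 is a factor of macrophages and other myeloid cells. Its motif matched in C1qc at positions -195 to -188 from the start, on the strand opposite to the gene, and in none of the other 3 members with an entry. Of 32851 RefSeq promoter windows of the same 250 bases, 2.44% hold it. The interferon-stimulated response element (GAAANNGAA, in 7.13% of windows), STAT (TTCNNNGAA, 7.02%) and NF-kB (GGNNTTTCC, 4.93%) motifs and the estrogen response element, read as GGTCA and TGACC with 3 bases between (0.06%), had no match in the 4 windows. The 1 match overlapped no match of another motif. A match is a description of letters and no match says only that these letters are not there.

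C1qa was the highest of the 3 chains in the median library, with a ratio to C1qc of 1.37 (0.984 to 1.61 over the libraries) and to C1qb of 1.51 (0.798 to 1.87). C1qb followed C1qc at a ratio of 0.904 in the median library (0.775 to 1.34). Mean levels over 48 libraries were 51.7 TPM for C1qa, 38.5 TPM for C1qc and 35.6 TPM for C1qb. The level of C1qa ran from 14.0 to 88.0 TPM over the libraries, a 6.28-fold range that is wider than that of any of these ratios. The lowest levels came from libraries rich in ribosomal RNA-like sequence, which lowers a TPM level but not a ratio of genes within a library.

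Correlations were computed on log2(TPM + 1) after rescaling each library by its median ratio to all libraries, to take out shifts shared by all genes of a library. The permutations shuffled all 48 libraries without regard to group, so differences between groups enter the p-values. Values of r within groups have no p-value. C1qb and C1qc had Pearson's r = 0.959 and Spearman's rho = 0.931 over 48 libraries, the highest of 28 member pairs (permutation p = 1e-05 for each, the smallest that 100000 permutations can give, and 3.5e-05 adjusted over 28 pairs). C1qa and C1qc had r = 0.935 and rho = 0.939 with the same p, and r = 0.946 within groups. C1qa and C1qb had r = 0.856 and rho = 0.833, again with p = 1e-05 by permutation, and r = 0.883 within groups. Without the 2 libraries farthest from the median the 3 pairs had r of 0.948, 0.921 and 0.83. All 3 chains share libraries and tissue, so these values describe the libraries and not regulation.

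In Esr1 glands after 1 week at 12 months, C1qa was at 86.2, 87.3 and 82.6 TPM, against 25.6, 78.1 and 58.3 TPM in uninduced Esr1 glands of that age. C1qb was at 51.5, 57.5 and 49.5 TPM in induced glands, against 15.4, 42.9 and 34.1 TPM in uninduced ones. The 3 induced libraries lay close together and above the uninduced ones for each chain, but the uninduced libraries were far apart. The log2 changes were 0.79 (SE 0.49) for C1qa, 0.87 (SE 0.53) for C1qb and 0.77 (SE 0.50) for C1qc, with an adjusted p of 0.754 each by limma. Of all genes tested, 10.1% had their induced libraries all above the uninduced ones in this comparison, and its median change was 0.57 over the 8 members and 0.22 over all genes. Leaving out the low uninduced replicate 1 left changes of 0.34 for C1qa, 0.45 for C1qb and 0.37 for C1qc. In CYP19A1 glands after 1 week at 12 months C1qa was at 16.2, 14.0 and 51.1 TPM, against 14.0, 43.0 and 50.0 TPM in uninduced CYP19A1 glands, and the groups overlapped.

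Esr1 glands of 30 months had low C1q. C1qc was at 30.0, 20.6 and 18.4 TPM there, against 57.1, 53.0 and 41.3 TPM in Esr1 glands of 24 months with 12 months of induction. C1qa was at 44.3, 27.6 and 27.2 TPM in the 30-month glands, against 69.9, 60.4 and 57.4 TPM in the 24-month glands. The lowest of the 30-month libraries for C1qa and C1qc, replicate 3, had 50.3% of its TPM on ribosomal RNA-like genes. The groups did not overlap for C1qa, C1qb or C1qc, but no chain passed: the log2 changes were -0.93, -1.04 and -1.12, with adjusted p of 0.33, 0.319 and 0.3 by limma. Without the libraries rich in ribosomal RNA-like sequence they were -0.82, -0.98 and -0.98. C2 and Cfb also lay lower without overlap at 30 months, and Cfd lay higher without overlap. In that comparison the libraries of 30 months were all below those of 24 months for 35.6% of genes tested, and the median over all genes was -0.36. In CYP19A1 glands of 30 months, C1qc was at 28.2, 42.8 and 32.8 TPM, against 49.3, 45.8 and 37.4 TPM in CYP19A1 glands of 24 months with 12 months of induction, with overlap and an adjusted p of 0.969 by limma.

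C4b encodes C4, which C1 cleaves and which then binds to surfaces next to it. It lies at chr17:34728380-34743882 on the minus strand, in the major histocompatibility complex, where C4a, a near copy, lies 65209 bp away. In uninduced Esr1 glands C4b was at 29.2, 39.6 and 61.1 TPM at 12 months, at 55.1, 57.5 and 59.7 TPM at 18 months and at 76.5, 124 and 57.0 TPM at 24 months. In uninduced CYP19A1 glands it was at 13.3, 54.3 and 30.1 TPM at 12 months, at 41.4, 31.4 and 86.8 TPM at 18 months and at 61.5, 86.1 and 68.6 TPM at 24 months. The means were higher at each older age in both models, and the libraries of 24 and 12 months did not overlap in CYP19A1 glands, as for 9.31% of genes higher in all 24-month libraries there, but did in Esr1 glands.

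Over both models C4b averaged 79.0 TPM at 24 months and 37.9 TPM at 12 months, a log2 change of 1.14 (SE 0.32, 95% interval 0.49 to 1.79) with an adjusted p of 0.0295 by limma. It was the only member of 8 to pass, where 4.68% of genes tested passed in either direction and 15.5% had an unadjusted p under 0.05. The median change was 0.44 over the 8 members and 0.07 over all genes. Within models the change was 0.96 in Esr1 glands (adjusted p = 0.588) and 1.32 in CYP19A1 glands (adjusted p = 0.1), neither past the threshold in limma. Without uninduced CYP19A1 12-month replicate 2 the CYP19A1 change was 1.78 and passed (adjusted p = 0.0149 by limma). Of the 12-month group that fit keeps replicates 1 and 3, with 67.2% and 22.2% of their TPM on ribosomal RNA-like genes, which lowers other genes there. With all libraries 4.24% of genes passed in the CYP19A1 comparison. Without the libraries rich in ribosomal RNA-like sequence the CYP19A1 change was 0.42, with that replicate 2 as the only 12-month library left. The difference of Esr1 minus CYP19A1 in that change was -0.36 (95% interval -1.65 to 0.94, adjusted p = 0.846 by limma). The steps from 12 to 18 months were 0.46 and 0.77 and those from 18 to 24 months 0.50 and 0.55 in Esr1 and CYP19A1 glands, and none passed.

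Without the 9 libraries rich in ribosomal RNA-like sequence the C4b change was 0.69. That fit keeps 1 uninduced CYP19A1 library of 12 months, replicate 2, the one with the most C4b in its group in deposited TPM. Replicates 1 and 3 of that group had 67.2% and 22.2% of their TPM on ribosomal RNA-like genes, which lowers their C4b level. With the 4 groups fitted alone the change was 1.14 (adjusted p = 0.154 by limma), so the call was lost. It was also lost, with changes of 0.88 to 1.15, when 1 library was left out: uninduced CYP19A1 12-month replicate 1 (adjusted p = 0.0677), CYP19A1 24-month replicate 2 (0.071) or 3 (0.0545), Esr1 12-month replicate 1 (0.0881) or 2 (0.0738), or Esr1 24-month replicate 2 (0.126), in limma fits. The scarce copy C4a had 2.58 TPM at 24 months and 2.20 TPM at 12 months (adjusted p = 0.966 by limma), and since reads may be split between the copies, both levels are uncertain.

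Other transcripts moved in the same age comparison. Of 7 B cell markers 6 were tested and all 6 rose. Summed B cell markers ran from 3.76 to 66.2 TPM in Esr1 glands of 24 months, against 2.24 to 5.01 TPM at 12 months, with overlap. In CYP19A1 glands they ran from 10.9 to 36.6 TPM at 24 months, against 0.77 to 5.82 TPM at 12 months. All 5 skeletal muscle markers rose as well. Their sum ran from 6301 to 26210 TPM in Esr1 glands of 24 months, against 1617 to 12431 TPM at 12 months, with overlap. In CYP19A1 glands it ran from 13545 to 20923 TPM, against 430 to 3644 TPM. After median-ratio rescaling it ran there from 11653 to 21668, against 299 to 11669. Of 10 macrophage markers none passed, where 4.68% of all genes did. At an unadjusted p under 0.05 in limma 1 was higher, beside 15.5% of genes in either direction. The part of these in the C4b result was not tested.

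**Figure D2:**
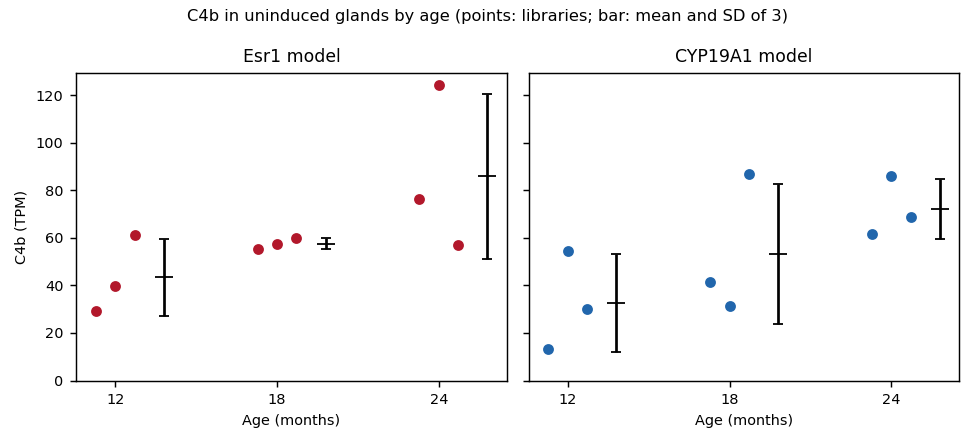
C4b in TPM in uninduced glands of 12, 18 and 24 months in the Esr1 model (left) and the CYP19A1 model (right); points are libraries, bars the mean and SD of 3. The 3 CYP19A1 libraries of 24 months lie at 61.5 to 86.1 TPM, above those of 12 months, while the Esr1 libraries of 24 and 12 months overlap.

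In long-induced glands C4b averaged 88.4 TPM in Esr1 and 60.3 TPM in CYP19A1 glands over 6, 12 and 18 months of induction. The log2 difference was 0.58 (SE 0.26) and did not pass (adjusted p = 0.232 by limma), while after rescaling each library by its median ratio to all libraries it was 0.73 with an adjusted p of 0.02 by limma. In Esr1 glands C4b was at 116, 83.0 and 76.4 TPM after 6 months, at 129, 82.8 and 90.7 TPM after 12 months and at 93.5, 59.2 and 64.7 TPM after 18 months. In CYP19A1 glands it was at 27.98, 66.4 and 42.8 TPM after 6 months, at 72.4, 43.7 and 63.1 TPM after 12 months and at 56.8, 82.2 and 87.4 TPM after 18 months. The Esr1 mean was the higher one after 6 and 12 months and the models overlapped after 18 months.

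C2 encodes the protease that joins C4 in the classical enzyme. It lies at chr17:34862604-34898265 on the minus strand, 85 bp from Cfb, and the annotated read-through Gm20547 overlaps both genes but had a mean of only 0.44 TPM. C2 was the lowest of the 8 in 46 of 48 libraries, with a mean of 13.1 TPM. Its group means lay between 6.72 ± 0.536 TPM (SD, n = 3) in CYP19A1 glands after 1 week at 12 months and 16.96 ± 3.65 TPM (SD, n = 3) in CYP19A1 glands after 12 months. In uninduced CYP19A1 glands C2 was at 15.4, 22.0 and 10.1 TPM at 24 months, against 3.65, 14.1 and 10.7 TPM at 12 months. The groups overlapped, and the log2 change of 0.78 did not pass in limma (adjusted p = 0.274). With 1 library left out it lay between 0.28 and 1.13, and without uninduced CYP19A1 12-month replicate 2 it was 1.13 and passed (adjusted p = 0.0369 by limma). Of the 12-month group that fit keeps replicates 1 and 3, both rich in ribosomal RNA-like sequence. With all libraries 4.24% of genes passed in this comparison.

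C3 encodes the central component that both pathways cleave. It lies at chr17:57203970-57228136 on the minus strand and ranked second of the 8 in 44 of 48 libraries. In uninduced Esr1 glands C3 was at 159, 232 and 175 TPM at 12 months, at 225, 275 and 183 TPM at 18 months and at 58.8, 153 and 166 TPM at 24 months. The 24-month libraries lay below the 18-month ones, with a log2 change of -0.97 (SE 0.44, adjusted p = 0.616 by limma), which did not pass and was -0.49 without the low 24-month replicate 1. All 24-month libraries lay below for 3.59% of genes tested there. In uninduced CYP19A1 glands C3 averaged 172 ± 105 TPM at 12 months, 138 ± 52.7 TPM at 18 months and 126 ± 36.4 TPM at 24 months (SD, n = 3 each).

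After 1 week of induction C3 differed in direction between the CYP19A1 ages without passing at either. At 12 months it was at 99.1, 93.5 and 47.0 TPM in induced glands, against 51.2, 226 and 239 TPM in uninduced glands. At 18 months it was at 169, 217 and 345 TPM in induced glands, against 103, 114 and 199 TPM in uninduced glands. Both pairs of groups overlapped, with log2 changes of -0.88 (adjusted p = 0.548) at 12 months and 0.81 (adjusted p = 1.0) at 18 months by limma. The difference between the ages was not tested. With 1 library left out the 12-month change lay between -1.60 and -0.50. Without uninduced CYP19A1 12-month replicate 1 it was -1.60 with an adjusted p of 0.00236 by limma, and C2 (-0.78) and Cfd (-1.66) then passed as well. In that fit 12421 genes passed and the median change of all genes was -0.76, and all 3 induced libraries are rich in ribosomal RNA-like sequence. In Esr1 glands of 12 months C3 was at 269, 233 and 289 TPM after 1 week, against 159, 232 and 175 TPM uninduced. The log2 change of 0.49 did not pass (adjusted p = 0.754 by limma). These groups just missed overlapping, as for 10.1% of genes higher in all induced libraries, and the median change of all genes was 0.22.

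Cfb encodes factor B, the protease of the alternative pathway enzyme, and lies at chr17:34856374-34862518 on the minus strand. In Esr1 glands of 24 months it was at 30.4, 53.5 and 52.8 TPM uninduced, at 85.5, 53.8 and 53.9 TPM after 6 months and at 64.5, 52.3 and 42.5 TPM after 12 months of induction, and at 30 months it was at 15.1, 12.1 and 10.7 TPM after 18 months. In CYP19A1 glands of 24 months it was at 24.7, 38.4 and 17.3 TPM uninduced, at 12.3, 21.8 and 36.4 TPM after 6 months and at 43.4, 31.4 and 35.8 TPM after 12 months, and at 30 months it was at 18.1, 28.9 and 23.3 TPM after 18 months. Against the Esr1 glands with 12 months of induction, the 30-month Esr1 libraries lay lower without overlap, as did 35.6% of genes tested.

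Cfb averaged 12.6 ± 2.26 TPM in Esr1 glands of 30 months with 18 months of induction and 53.1 ± 11.04 TPM in Esr1 glands of 24 months with 12 months of induction (SD, n = 3 each). The log2 change was -1.98 (SE 0.41, 95% interval -2.82 to -1.15) with an adjusted p of 0.0275 by limma. Of the 30-month libraries the lowest, replicate 3, had 50.3% of its TPM on ribosomal RNA-like genes, and without such libraries the change was -1.88 (adjusted p = 0.0139 by limma). Cfb was the only member of 8 to pass, where 28 genes (0.139%) did and 15.9% had an unadjusted p under 0.05. In CYP19A1 glands the change was -0.64 (adjusted p = 0.969 by limma), where none of the 8 passed and 0% of genes did (none of the 8 and 1.64% of genes at an unadjusted p under 0.05 in limma). The 30-month CYP19A1 libraries were below the 24-month ones for Cfb and C2, as for 21.6% of genes tested. A comparison added after these values were seen gave a difference of Esr1 minus CYP19A1 of -1.34 (SE 0.58, 95% interval -2.52 to -0.15, adjusted p = 1.0 by limma), so the models were not shown to differ. There 0.00495% of genes passed, and Cfb alone of the 8 and 1.46% of genes had an unadjusted p under 0.05.

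After rescaling that sets the median change of all genes from -0.36 to near 0, the Cfb change was -1.50 and just missed the threshold (adjusted p = 0.0565), as it did with the 2 groups fitted alone (-1.98, adjusted p = 0.0721), both by limma. The call was also lost when 1 library was left out, namely 24-month replicate 1 (-1.83, adjusted p = 0.131) or 2 (-1.98, 0.0976), or 30-month replicate 1 (-2.11, 0.0635), 2 (-1.96, 0.0783) or 3 (-1.88, 0.192), in limma fits.

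Markers of fat and stroma moved beside Cfb. Lep, which encodes the adipocyte hormone leptin, was the 1 of 9 white adipocyte markers that passed, with 14.4 TPM in Esr1 glands of 30 months and 327 TPM in Esr1 glands of 24 months after 12 months of induction (adjusted p = 0.026 by limma). The summed 9 markers ran from 1433 to 2669 TPM at 30 months, against 4118 to 6975 TPM at 24 months. The summed 7 fibroblast markers ran from 305 to 410 TPM at 30 months, against 841 to 954 TPM at 24 months, and the 10 macrophage markers from 82.6 to 171 TPM, against 169 to 184 TPM. None of the fibroblast or macrophage markers passed (4 and 5 lower at an unadjusted p under 0.05 in limma, as 15.9% of all genes in either direction). None of these lists had a marker at 0 in either group. The sums are deposited TPM, and the median change of all genes was -0.36. After median-ratio rescaling, macrophage sums at 30 months (95.6 to 185) lay on both sides of those at 24 months (152 to 171). White adipocyte (1552 to 3090 against 3675 to 6487) and fibroblast sums (414 to 531 against 768 to 857) still did not overlap. The part of these in the Cfb result was not tested.

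**Figure D3:**
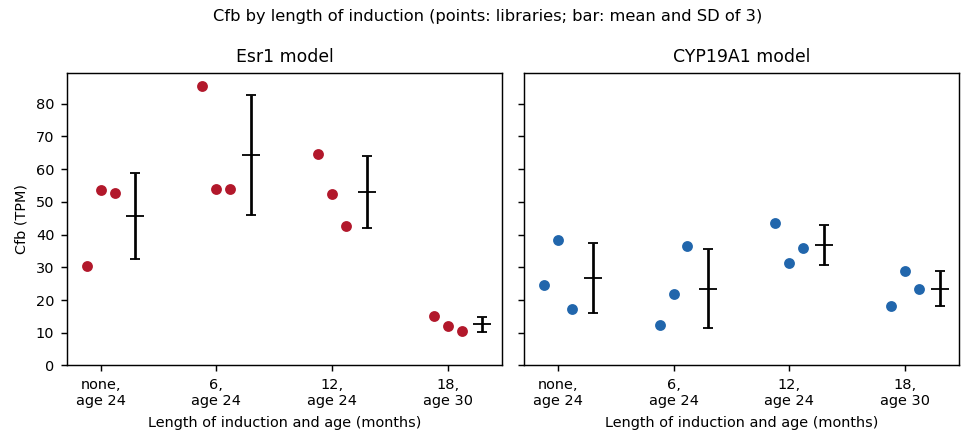
Cfb in TPM by length of induction and age, in Esr1 glands (left) and CYP19A1 glands (right); points are libraries, bars the mean and SD of 3. The 3 Esr1 libraries of 30 months lie at 10.7 to 15.1 TPM, below the 30.4 to 85.5 TPM of the Esr1 libraries of 24 months, while the CYP19A1 libraries of 30 months (18.1 to 28.9 TPM) lie inside the 12.3 to 43.4 TPM of those of 24 months.

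Before 30 months Cfb was higher in older uninduced Esr1 glands, at 30.4, 53.5 and 52.8 TPM at 24 months, against 18.3, 29.8 and 21.3 TPM at 12 months. These libraries did not overlap, as for 3.86% of genes higher in all 24-month libraries, the log2 change was 0.93 (SE 0.41), and it did not pass in limma (adjusted p = 0.535). Over both models the change was 0.80 (SE 0.29, adjusted p = 0.128 by limma). After 6 months of Esr1 induction the Cfb libraries lay just above the uninduced ones of 24 months, as for 1.31% of genes, with a log2 change of 0.50 (adjusted p = 1.0 by limma). After 1 week in CYP19A1 glands of 18 months Cfb was at 12.6, 13.2 and 15.1 TPM, against 22.4, 22.0 and 29.9 TPM uninduced. The groups did not overlap, as for 1.66% of genes tested that were lower in all induced libraries, and the log2 change of -0.81 did not pass (adjusted p = 1.0 by limma).

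Cfd encodes factor D, a serine protease that fat cells secrete. It lies at chr10:79890853-79892655 on the plus strand, apart from the other members. It took 76.2% of the summed TPM of the 8 in the median library (39.3% to 90.4%). Its group means ran from 472 ± 161 TPM in Esr1 glands after 6 months of induction to 3255 ± 1344 TPM in CYP19A1 glands after 1 week at 18 months (SD, n = 3 each), a 6.90-fold range, the widest of the 8 on that measure.

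In uninduced Esr1 glands Cfd was at 2563, 1709 and 1789 TPM at 12 months, at 339, 427 and 1584 TPM at 18 months and at 377, 1125 and 563 TPM at 24 months. The 12-month libraries lay above those of both older ages, as for 4.17% of genes against 18 months and 8.61% against 24 months. The log2 changes were -1.70 (SE 0.54, adjusted p = 0.836) at 18 against 12 months and -1.68 (SE 0.54, adjusted p = 0.213) at 24 against 12 months by limma, so neither passed. In uninduced CYP19A1 glands Cfd was at 688, 3032 and 1317 TPM at 12 months, at 2176, 1221 and 1167 TPM at 18 months and at 1013, 1875 and 1198 TPM at 24 months. The change from 12 to 24 months was -0.09 there, between -0.60 and 0.47 with 1 library left out, so its sign is not settled. The difference of Esr1 minus CYP19A1 was -1.59 (95% interval -3.13 to -0.05, adjusted p = 0.766 by limma), between -2.14 and -1.07 with 1 library left out and -0.54 without the libraries rich in ribosomal RNA-like sequence. Over both models the change was -0.89 (adjusted p = 0.223 by limma) with the 12 libraries. Without those rich in ribosomal RNA-like sequence it was -1.41. Both that value and the -0.54 rest on 1 uninduced CYP19A1 library of 12 months, replicate 2, the one with the most Cfd in its group in deposited TPM. Replicates 1 and 3 of that group had 67.2% and 22.2% of their TPM on ribosomal RNA-like genes, which lowers their Cfd level.

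At 30 months Cfd stood on the other side from Cfb. In Esr1 glands it was at 1213, 1475 and 960 TPM after 18 months of induction, against 650, 523 and 511 TPM at 24 months after 12 months. The groups did not overlap, and only 0.638% of genes tested were higher in all 30-month libraries, but the log2 change of 1.10 (SE 0.54) did not pass in limma (adjusted p = 0.314). In CYP19A1 glands after 1 week at 18 months Cfd was at 2572, 2390 and 4804 TPM, against 2176, 1221 and 1167 TPM uninduced. These groups did not overlap either (as for 2.12% of genes higher in all induced libraries), with a log2 change of 1.08 and an adjusted p of 1.0 by limma. At 12 months the CYP19A1 glands were at 1151, 991 and 222 TPM after 1 week, against 688, 3032 and 1317 TPM uninduced, a change of -1.15 that did not pass (adjusted p = 0.548 by limma). It was -0.39 without induced replicate 3 and -1.66 without uninduced replicate 1. All of the induced libraries there, and replicates 1 and 3 of the uninduced ones, are rich in ribosomal RNA-like sequence. The median change of all genes was -0.32 in that comparison. In Esr1 glands of 12 months Cfd was at 899, 1149 and 1568 TPM after 1 week, against 2563, 1709 and 1789 TPM uninduced, without overlap (as for 1.88% of genes lower in all induced libraries) and with a log2 change of -0.76 (adjusted p = 0.754 by limma).

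Across the 8 comparisons of induced with uninduced glands, which share their uninduced groups at 24 months, none of the 8 members passed in limma. At an unadjusted p under 0.05 the count was 1, Cfd in CYP19A1 glands after 1 week at 12 months. The median change of all genes was -0.32 in that comparison, whose induced libraries are all rich in ribosomal RNA-like sequence. The share of genes that passed was 0.0099% and 0% for 1 week in Esr1 glands of 12 and 18 months, 0% and 0.00495% for 6 and 12 months in Esr1 glands, 0% and 0% for 1 week in CYP19A1 glands of 12 and 18 months, and 0% and 0.0198% for 6 and 12 months in CYP19A1 glands. The share with an unadjusted p under 0.05 was 5.51%, 1.25%, 1.16% and 1.38% for these Esr1 comparisons and 6.78%, 1.46%, 1.29% and 1.13% for the CYP19A1 ones. A count of 0 members is thus near the background. The 95% intervals still allow sizeable changes: for C1qa after 12 months of induction the interval ran from -0.70 to 1.302 on the log2 scale in Esr1 glands and from -0.69 to 1.31 in CYP19A1 glands. The tests of the difference between the models in response to 1 week or to 6 and 12 months passed for no member and for 0% of genes (none of the 8 members, and 6.42% and 1.17% of genes, at an unadjusted p under 0.05 in limma). The difference between the models in the change from 12 to 24 months passed for no member and 0.0396% of genes, with Cfd alone of the 8 and 6.49% of genes under 0.05 unadjusted in limma.

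**Figure D4:**
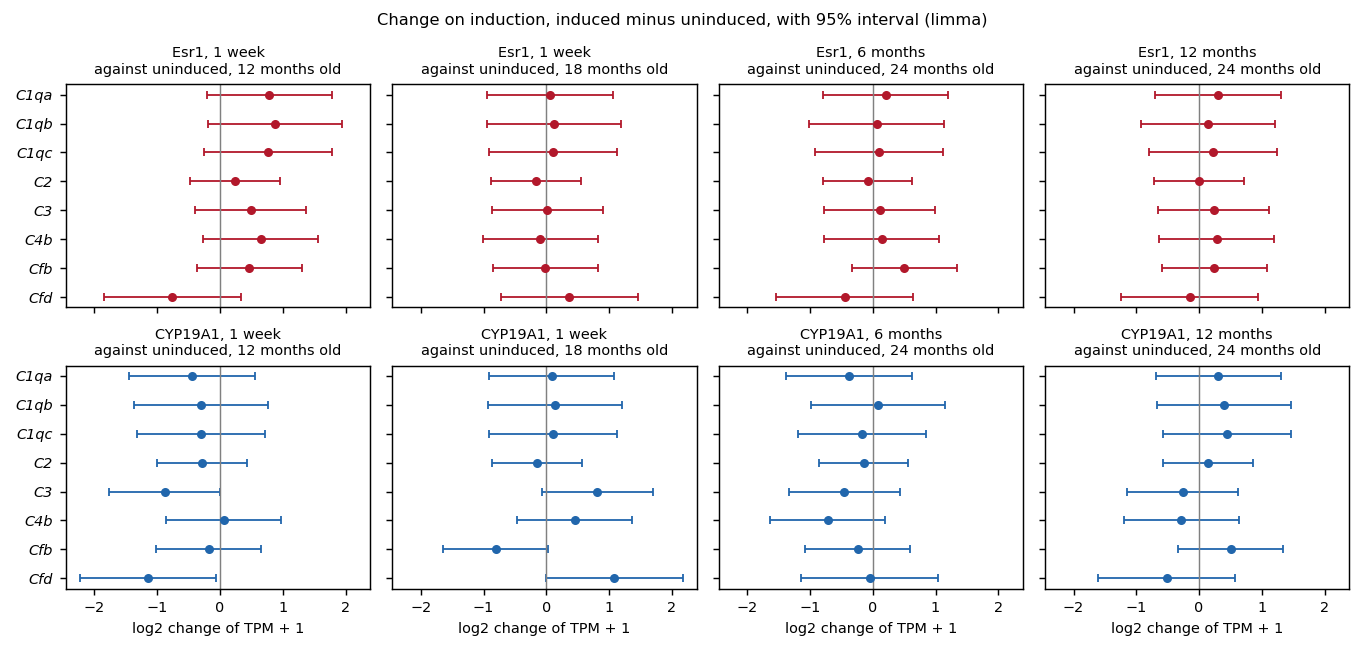
Log2 change of each member with its 95% interval in the 8 comparisons of induced with uninduced glands, Esr1 above and CYP19A1 below; a positive value is higher in induced glands. The intervals cross 0 except that of Cfd in CYP19A1 glands after 1 week at 12 months (-1.15, interval -2.24 to -0.06), which limma did not pass after adjustment. The induced libraries there are all rich in ribosomal RNA-like sequence, and the median change of all genes was -0.32.

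Among uninduced glands of one model no member passed between 12, 18 and 24 months. The share of genes that passed was 0% at 18 against 12, 0.574% at 24 against 12 and 0.336% at 24 against 18 months in Esr1 glands. In CYP19A1 glands it was 0.0099%, 4.24% and 0.0693% for the same steps. At an unadjusted p under 0.05 in limma there were 1, 3 and 1 members in Esr1 glands and 0, 2 and 0 in CYP19A1 glands for those steps, beside 2.76%, 7.68% and 7.37% of genes in Esr1 glands and 5.61%, 14.7% and 3.64% of genes in CYP19A1 glands.

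Between the models no member passed either. In uninduced glands 0 of 8 members passed, where 2.95% of genes did (none of the 8 and 17.7% of genes at an unadjusted p under 0.05 in limma). Means over 12, 18 and 24 months were 59.9 TPM in Esr1 and 42.0 TPM in CYP19A1 glands for C1qa and 1164 TPM in Esr1 and 1521 TPM in CYP19A1 glands for Cfd. In long-induced glands 0 of 8 passed, where 4.15% of genes did, and 2 of 8, C4b higher and Cfd lower in Esr1 glands, had an unadjusted p under 0.05 in limma, as 17.6% of genes did. Cfd averaged 750 TPM in Esr1 and 1220 TPM in CYP19A1 long-induced glands, a log2 difference of -0.77 (adjusted p = 0.164), and with these 6 groups fitted alone its adjusted p was 0.0314 by limma.

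The rest of the cascade was counted by role. Of 41 other complement genes in the matrix, 32 were tested: 11 of 14 that start the cascade, 4 of 7 terminal components, 9 of 11 regulators and 8 of 9 receptors. Passes occurred only between the models, and all were lower in Esr1 glands. In uninduced glands 2 of 32 passed, beside 2.95% of all genes, C1rb with 0.707 TPM in Esr1 and 2.07 TPM in CYP19A1 glands and C1s2 with 1.86 TPM in Esr1 and 5.05 TPM in CYP19A1 glands, which are second copies of the C1 protease genes. In long-induced glands 5 of 32 passed, beside 4.15% of all genes: C1rb, C1s2, the lectin pathway protease gene Masp2, the C4 copy C4a, and Cd59b, a copy of the inhibitor Cd59a. C4a had 1.24 TPM in Esr1 and 3.14 TPM in CYP19A1 glands, and Cd59b 2.88 TPM in Esr1 and 7.22 TPM in CYP19A1 glands.

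The more abundant first copies did not pass there. C1s1 had 50.4 TPM in Esr1 and 50.3 TPM in CYP19A1 glands (adjusted p = 0.952), C1ra 23.3 TPM in Esr1 and 28.6 TPM in CYP19A1 glands (adjusted p = 0.562), and Cd59a 29.3 TPM in Esr1 and 26.4 TPM in CYP19A1 glands (adjusted p = 0.979), all by limma. Reads of near-identical copies can be split between them, so the levels of these pairs are uncertain. Of the other roles the most abundant were Clu (132 TPM) and Serping1 (82.4 TPM) among regulators, Cd93 (12.3 TPM) and Itgb2 (9.50 TPM) among receptors, and Hc and C8g (1.96 TPM each) among terminal components, in mean TPM over 48 libraries. None of these passed a comparison, and none of the 32 passed in the comparisons in which C4b or Cfb did (3 higher and 0 lower beside C4b, and 0 higher and 7 lower beside Cfb, at an unadjusted p under 0.05 in limma, where 15.5% and 15.9% of all genes had such a p).

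When the 16 group means of a member were put in order, the libraries of neighbouring groups overlapped in 15 of 15 steps for 7 members. For C3 they overlapped in all steps but 1, between CYP19A1 glands of 30 months and Esr1 glands of 24 months after 6 months. Sorting the means itself makes neighbours alike, so the overlaps are a description only. The ratio of the highest to the lowest group mean was 2.35 for C1qb, 2.51 for C1qc, 2.52 for C2, 3.11 for C4b, 3.15 for C1qa, 3.30 for C3, 5.10 for Cfb and 6.90 for Cfd. The lowest mean fell in CYP19A1 glands after 1 week at 12 months for C1qa, C1qc, C2, C3 and C4b, the group whose 3 libraries are rich in ribosomal RNA-like sequence.

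Of the 28 member pairs, 16 had a Pearson correlation with a permutation p under 0.05 after adjustment over the pairs, on rescaled values. Cfb varied with the C1q chains, with r = 0.658 and rho = 0.635 to C1qc (permutation p = 1e-05, adjusted 3.5e-05) and r = 0.654 within groups. Cfd ran against Cfb with r = -0.632 and rho = -0.619 (permutation p = 1e-05, adjusted 3.5e-05), and within groups r was -0.27. C4b had r = 0.407 with Cfb (rho 0.363, permutation p = 0.0037, adjusted 0.008), and C3 had no pair past the threshold by Pearson's r. By Spearman's rho C3 passed with Cfb (rho -0.352, permutation p = 0.015, adjusted 0.028). On deposited TPM 21 of 28 pairs passed by Pearson's r, among them C3 with C1qa, C1qb, C1qc, C2 and Cfd. The median r over pairs was 0.60 there and 0.22 after rescaling.

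The members differed in the marker lists they moved with, in 120 relations to 15 lists, each list taken as the mean log2 level of its genes. With 10 macrophage markers r was 0.797 for C1qa, 0.818 for C1qb and 0.870 for C1qc (rho 0.804, 0.814 and 0.873), and 0.921, 0.865 and 0.927 within groups. The chains, in that order, also had r of 0.672, 0.616 and 0.650 with the acute-phase and NF-kB list. With the neutrophil list they had 0.597, 0.611 and 0.604 (adjusted permutation p = 0.00018 for each of these relations). With the macrophage list Cfb and C4b had r of 0.616 and 0.591, Cfd -0.456 (adjusted permutation p = 0.0061), C2 0.214 and C3 -0.016. C3 instead had r = 0.609 with 8 luminal epithelium markers (rho 0.621, 0.452 within groups). With 9 white adipocyte markers Cfb had r = 0.526 and C2 r = 0.509, C3 r = -0.517, and Cfd r = -0.039. C4b had r = 0.550 with 7 B cell markers (rho 0.562, 0.392 within groups). Permutation p was 1e-05 for the macrophage relations of the C1q chains and the luminal relation of C3, and 2e-05 for the macrophage relations of C4b and Cfb and the B cell relation of C4b, each with an adjusted p of 0.00018 over 120 relations, of which 42 passed.

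**Figure D5:**
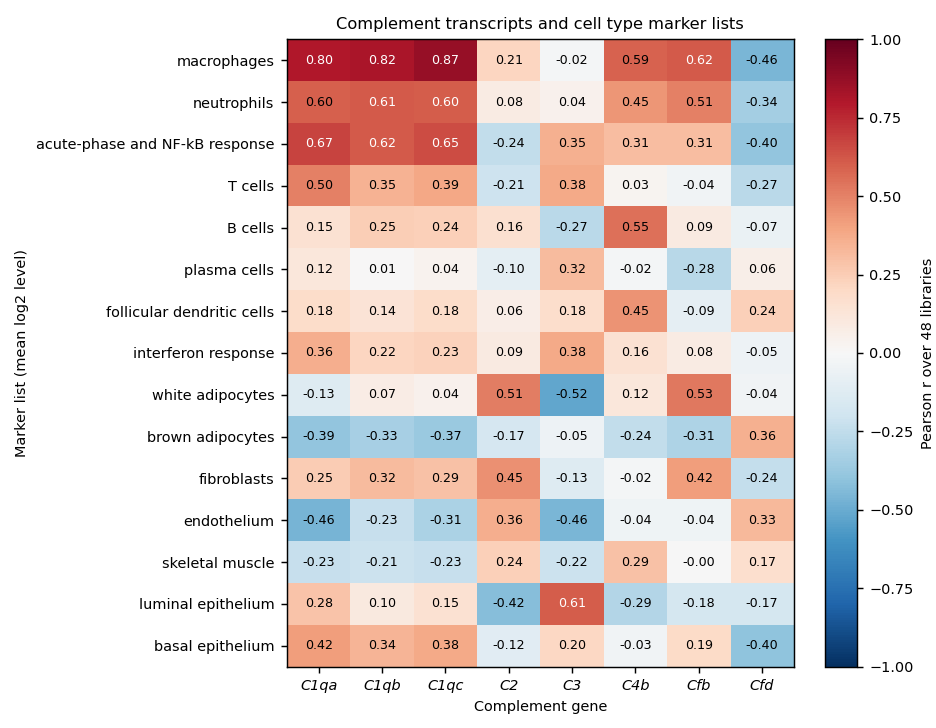
Pearson's r over 48 libraries between each member (columns) and the mean log2 level of each marker list (rows), on rescaled values; red is positive and blue negative. The macrophage row holds the highest values, 0.80 to 0.87 for the C1q chains, while C3 is highest in the luminal epithelium row and Cfd in the brown adipocyte row.

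The genes outside the members that were most like each member over the 48 libraries were named by highest Pearson r on rescaled values, among protein-coding genes with a mean of at least 2 TPM. For C1qc these began with Fcgr3 (r = 0.895), Tyrobp (0.874) and Arpc2 (0.844), and for C1qb with Fcgr3 (0.872), Tyrobp (0.863) and Adgre1 (0.833), the last being one of the macrophage markers. For C1qa they were Fcer1g (0.830), Fcgr3 (0.827) and Ctsc (0.826). Cfb was most like Slc48a1 (0.908), Dctn3 (0.869) and Lpgat1 (0.862), and Cfd most like Cyp2e1 (0.861), Slc1a3 (0.815) and Gpx3 (0.793). C2 had the complement protease gene C1s1 (0.717) first, C3 had Rps6 (0.747) and C4b had the chemokine gene Ccl19 (0.742). The lower values for C2, C3 and C4b describe looser likeness than for C1q or Cfb.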

How the data were processed

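Per the labels, stranded libraries were built from rRNA-depleted total RNA and sequenced as 75 bp single reads. The submitters' processing notes name RSEM 1.3.1, STAR 2.7.9a, the mm10 build, Trim Galore 0.6.5 and FastQC 0.11.9, and the annotation release is not given in the sources used here. The authors deposited 1 matrix of TPM for 48 libraries. Of its identifiers, 55094 matched GENCODE M21 with their version, from which positions were taken. TPM were not treated as counts: log2(TPM + 1) was fitted with limma 3.58.1 in R 4.3.3 with 1 mean per group and an intensity trend, for genes reaching 1 TPM in 3 or more libraries, with Benjamini-Hochberg adjustment per comparison, and the fit was tested on simulated data. Correlations used Python 3.11.15 with numpy 2.4.6 and 100000 permutations. No libraries were identical (highest correlation 0.9752). Members, lists and comparisons were chosen with earlier results of these data known. Named genes are the members, other complement genes that passed or the 2 most abundant of a role, and the most similar genes. Alternatives were a pseudocount of 0.1, no filter, 2 rescalings, the compared groups alone, a replicate block, leaving out 9 libraries rich in ribosomal RNA-like sequence, and leaving out each library. The comparison of the models in the 24- to 30-month change, the block with rescaling and the relations to marker lists were added after the data were seen.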

Additional observations from a re-analysis of the deposited data

How the results depend on the processing

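The direction of C4b with age in uninduced glands and of Cfb at 30 months held in every alternative run. With the compared groups alone C4b was 1.14 and Cfb -1.98, both no longer past the threshold (0 of 8 members each). Without the libraries rich in ribosomal RNA-like sequence C4b was 0.69, from a fit with 1 uninduced CYP19A1 library of 12 months left. With median-ratio rescaling Cfb was -1.50 (0 of 8 members), with and without the replicate block. Between long-induced models 1 of 8 members passed where 0 did otherwise, C4b with rescaling, with or without the block, and Cfd with the compared groups alone. Leaving out 1 library moved C4b between 0.88 and 1.37 and Cfb between -2.13 and -1.83, and the members past the threshold between 0 and 1 in those 2 comparisons, between 0 and 3 for 1 week in CYP19A1 glands at 12 months and between 0 and 2 for 24 against 12 months in CYP19A1 glands. The uncalled Cfd change in the last comparison lay between -0.60 and 0.47 and so turned sign. The cause of these shifts was not tested.

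The replicate numbers do not pair the libraries: same-numbered libraries of compared groups had correlations of their deviations from -0.34 to 0.35, over 0.1 in 10 of 24 pairs. With the replicate block on deposited TPM C4b was 1.14 (adjusted p = 0.0284) and Cfb -1.98 (adjusted p = 0.0364) by limma, and the block changed no call of a member. Without the 9 rich libraries no value exists for 1 week in CYP19A1 glands at 12 months, which loses its 3 libraries. With 3 libraries a group and unknown depth the 95% intervals are wide, and a change that did not pass was not shown to be absent.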
